A study of Mus musculus with 4 samples.

Results

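Messenger RNAs of cholesterol synthesis and sterol sensing were read on 4 arrays of mouse bone marrow-derived macrophages (BMDMs). The group holds 29 genes, chosen by name from the pathway with earlier results of these data known, of the 23660 genes that had a probe read on all 4 arrays. In it are 19 synthesis enzymes, placed in pathway order, and 10 genes that sense, regulate or move sterols. A gene was found by its symbol in the array annotation, and all 29 were on the array, with 43 probes in all. Where a gene had more than 1 probe, as 13 of the genes did, the probe with the highest mean signal over the 4 arrays was read. Values are normalized signals, the processed signal of a probe divided by the 75th percentile of the signals on its array.

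Cells make cholesterol from acetyl-CoA. The mevalonate steps build isoprenoid units and join them, and squalene, the first molecule committed to sterols, is then cyclized and trimmed to cholesterol. When the endoplasmic reticulum runs low in sterol, the transcription factors SREBP-1 and SREBP-2 are carried to the Golgi by SCAP, cut by a pair of proteases and sent to the nucleus, where they switch on the synthesis enzymes. INSIG proteins hold SCAP back when sterol is plentiful. In macrophages, which take up cells and lipoproteins, this balance between making, storing and exporting cholesterol is known to change with activation, and mTORC1 is known to act on SREBPs. Lamtor1 anchors the Ragulator complex, through which mTORC1 is recruited to lysosomes, and Torin1 is an ATP-competitive inhibitor of mTOR.

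Each condition was measured on 1 array, in cells of C57BL/6J mice aged 10 weeks. Bone marrow cells were grown for 6 days with supernatant of L929 cells, the usual source of macrophage growth factor, and then stimulated for 2 days. The wild-type M2 and M1 arrays hold cells given IL-4 at 50 ng per ml, or IFN-γ at 20 ng per ml together with LPS at 100 ng per ml. The KO array holds IL-4-stimulated cells whose genotype is labelled p18 (2400001E08Rik) -/-, an older name of Lamtor1, and the Torin1 array holds wild-type cells given IL-4 and Torin1 at 250 nM. By the study's methods the deletion is a floxed allele cut by LysM-Cre, which is active in the myeloid lineage and not in macrophages alone. The methods describe both floxed littermates without Cre and purchased C57BL/6J mice. The study's legends define its wild-type macrophages as coming from floxed mice without Cre, but do not state this for the arrays by name. Whether RNA was pooled is not given in the sources used here. With 1 array per condition no difference below has a replicate check, no test was possible and no p-value is given. Repeated spots of the same probe on an array give the only measured error, a technical SD of 0.088 for a log2 ratio of KO to M2, 0.093 for Torin1 to M2, 0.100 for M1 to M2 and 0.093 for Torin1 to KO. It leaves out the variation between cultures and animals, and in bulk RNA fewer cells of a type and less RNA per cell cannot be told apart.

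All arrays lay on the same slide and had no saturated spots, and between 50.9% and 55.4% of the 55681 probes were well above background. The targeted gene, 2400001E08Rik, had a normalized signal of 66.3 on the M2 array, 1.55 on KO, 74.96 on Torin1 and 51.2 on M1, so 2.34% of the M2 value was left on the KO array. All 6 macrophage markers were well above background on every array, with summed signals between 421 and 774. Among them Emr1 was uneven, at 111.6 on M2, 18.8 on KO, 15.9 on Torin1 and 54.4 on M1. Markers of other cells were uneven too. Of 5 neutrophil markers 3 were found by name, and their summed signal was 5.51 on M2, 0.534 on KO, 0.302 on Torin1 and 0.425 on M1, where Ngp was not well above background. Fibroblast markers, 5 genes, summed to 43.2 on M2, 55.9 on KO, 15.3 on Torin1 and 16.0 on M1, where Pdgfra was not well above background. Of 5 lymphocyte markers, 2 to 4 were well above background on an array, with sums between 1.98 and 4.05. Fibroblast markers, apart from Dcn, which was highest on M1, were thus highest on the KO array and lower on the Torin1 and M1 arrays, as many sterol genes below were, and their part in those differences was not tested.

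Of the 29 genes, 25 had an upstream sequence in the RefSeq promoter table (GRCm38.p6), and the other 4, Fdps, Fdft1, Sqle and Stard4, are named only. SREBPs bind sterol regulatory elements, and they are known to act with NF-Y, which binds CCAAT, and with Sp1, which binds GGGCGG. The 250 bases before each start were searched on both strands for TCACNCCAC, for the looser TCACNNCA (which every TCACNCCAC also holds), for CCAAT and for GGGCGG. The 150 bases nearest the start are shown for 5 enzymes that were at least 2-fold lower on the Torin1 array, picked after the matches were seen to show the motifs in different arrangements, and for Mbtps1, a protease of the sensing group within 2-fold there. All run 5′ to 3′ toward the start, and capitals mark every match to a searched motif.
Hmgcs1, chr13:119690201-119690350, plus strand: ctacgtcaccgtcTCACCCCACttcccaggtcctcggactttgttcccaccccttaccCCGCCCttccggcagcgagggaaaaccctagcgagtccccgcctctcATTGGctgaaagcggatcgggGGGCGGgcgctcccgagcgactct
Idi1, chr13:8885456-8885605, plus strand: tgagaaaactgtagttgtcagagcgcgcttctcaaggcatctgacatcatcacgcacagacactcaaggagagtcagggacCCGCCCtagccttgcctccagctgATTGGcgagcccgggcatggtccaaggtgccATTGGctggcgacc
Cyp51, chr5:4104698-4104847, minus strand: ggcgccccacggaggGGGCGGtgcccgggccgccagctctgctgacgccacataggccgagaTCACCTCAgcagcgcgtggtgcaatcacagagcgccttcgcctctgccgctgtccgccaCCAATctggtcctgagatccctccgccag
Sc4mol (now Msmo1), chr8:64733579-64733728, minus strand: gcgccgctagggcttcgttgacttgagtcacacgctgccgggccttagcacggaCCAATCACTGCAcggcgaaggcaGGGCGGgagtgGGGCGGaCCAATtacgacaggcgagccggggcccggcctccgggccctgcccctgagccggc
Hsd17b7, chr1:169969206-169969355, minus strand: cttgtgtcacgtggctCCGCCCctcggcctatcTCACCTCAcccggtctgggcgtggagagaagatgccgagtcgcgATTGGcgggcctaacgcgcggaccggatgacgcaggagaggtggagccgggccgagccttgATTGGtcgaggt
Mbtps1, chr8:119558762-119558911, minus strand: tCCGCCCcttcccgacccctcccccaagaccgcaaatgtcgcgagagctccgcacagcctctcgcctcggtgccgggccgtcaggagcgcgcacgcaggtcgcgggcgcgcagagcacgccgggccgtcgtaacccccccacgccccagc

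The full element was found only upstream of Hmgcs1, as TCACCCCAC from 137 to 129 bases before the start, among the 25 genes searched, and 1.22% of the 27025 genes in the table hold it. The looser form was upstream of 7 of 16 enzymes and 2 of 9 sensing genes, beside 13.0% of all genes. CCAAT lay upstream of 15 of 16 enzymes (all but Acat2) and 6 of 9 sensing genes, beside 37.5% of all genes. GGGCGG lay upstream of 14 of 16 enzymes and 7 of 9 sensing genes, beside 35.4% of all genes. In Cyp51 and Hsd17b7 the looser form read TCACCTCA, and in Sc4mol a match TCACTGCA overlapped a CCAAT. Upstream of Mbtps1 there was 1 GGGCGG and none of the other motifs. Of the 15 searched genes not 2-fold lower on Torin1, 11 held CCAAT, so Mbtps1 is not typical of them. A match is a description of these letters and not a measured site.

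**Figure D1:**
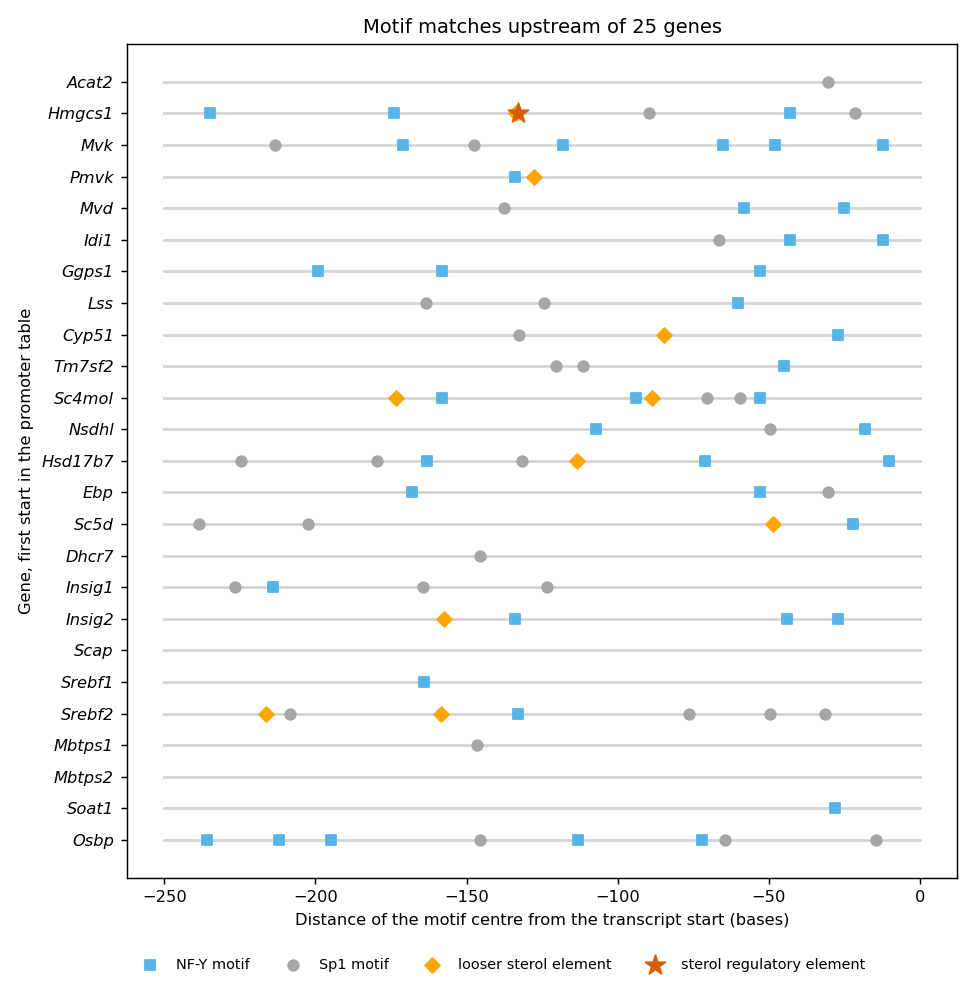
Positions of motif matches upstream of the 25 genes with a RefSeq promoter, at the first start listed for each gene. The x axis is the distance of the motif centre from the transcript start in bases, the y axis lists the genes in pathway order, and symbols stand for the 4 motifs. The single star, the full sterol regulatory element, is in Hmgcs1, and squares (CCAAT) recur in most rows. For the 5 genes with more than 1 start, matches at the other starts are counted in the text and not drawn.

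Within the genes, the order of the arrays was much alike. The KO array had the highest signal for 25 of the 29 genes, and the lowest was on the M1 array for 17 and on the Torin1 array for 10. The wild-type M2 array was the highest for 0 genes and the lowest for 1, Srebf2, by the probes read. The second Srebf2 probe was instead highest on M2, at 2.23, beside 2.07 on Torin1, 1.73 on KO and 0.847 on M1. Under the other 4 scalings and background correction tried, KO was highest for 23 to 28 of the genes. Between the highest and lowest array, enzymes spanned a median of 10.3-fold, from 1.98-fold (Ebp) to 54.1-fold (Idi1), and sensing genes a median of 4.71-fold, from 1.13-fold (Osbp) to 14.1-fold (Stard4). The probe read was well above background on all 4 arrays for 27 of the 29 genes, and for Cyp51 and Hsd17b7 it was not on the M1 array.

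**Figure D2:**
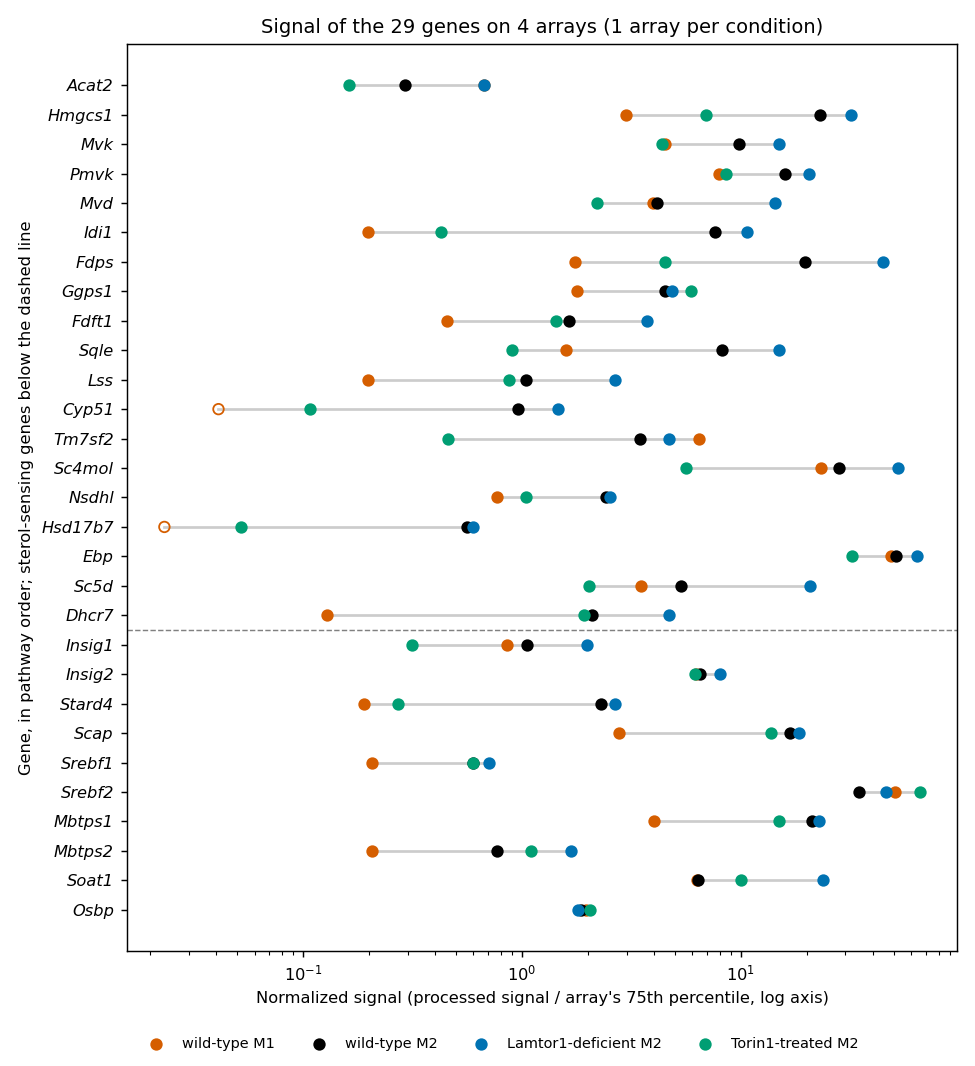
Normalized signal (log axis) of each of the 29 genes on the 4 arrays (black M2, blue KO, green Torin1, orange M1), with 1 point per array, open where the probe was not well above background. Levels compare between arrays within a row and not between rows. The KO point lies farthest right in 25 of 29 rows, and Idi1 has the widest row, from 0.198 to 10.7. For Acat2 the M1 point is hidden by the KO point, and for Srebf1 the M2 point by the Torin1 point.

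On the array annotation's build, mm9, the probes of the genes described first lie as follows, with Mvd at chr8:124957750-124957809, Idi1 at chr13:8891524-8891583, Fdps at chr3:88897549-88897608, Sqle at chr15:59162688-59162747, Lss at chr10:76015992-76016051, Cyp51 at chr5:4081471-4081530, Hsd17b7 at chr1:171880203-171880262, Sc5d at chr9:42062857-42062916, Dhcr7 at chr7:151033874-151033933, Stard4 at chr18:33361181-33361240, Scap at chr9:110287280-110287339 and Soat1 at chr1:158358766-158358825. The Hmgcs1 probe was annotated to an unplaced piece of chromosome 13. Each probe was assigned to a transcript of its gene by the array design, and its exon was not analysed here.

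The comparison of KO with M2 asks what Lamtor1 loss did to these transcripts under IL-4. Signals were higher on the KO array for all 19 enzymes and for 9 of 10 sensing genes, with median log2 ratios of 0.62 and 0.27, while the median over the 15566 genes tested was 0.08 and 56.3% of them were above 0. At least 2-fold higher were 9 of the 29 genes (31.0%), beside 10.5% of all genes tested, and at least 2-fold lower were 0 of 29, beside 10.5%. The sign rests on the scaling for 4 genes with ratios near 0, Nsdhl, Scap, Mbtps1 and Osbp. These counts are of the 1 probe read per gene. Of the 13 genes with more than 1 probe, 9 had probes of the same sign on KO. Another probe of Ggps1 gave −0.13, and the second probe of Stard4 gave −0.02.

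Sc5d, the desaturase of a late step, had normalized signals of 5.34 on M2, 20.7 on KO, 2.01 on Torin1 and 3.49 on M1, and its ratio of KO to M2, 3.87-fold (log2 1.95), was the largest of the 29. Soat1, which esterifies cholesterol for storage in droplets, read 6.37 on M2 and 23.6 on KO, 3.71-fold higher, and 10.0 on Torin1 and 6.32 on M1. Mvd, which makes isopentenyl diphosphate from mevalonate diphosphate, read 4.12 on M2, 14.2 on KO (3.45-fold higher), 2.21 on Torin1 and 3.96 on M1. These 3 genes, an early enzyme, a late enzyme and the storage enzyme, were the 3 that passed 3-fold on KO. Lss, the cyclase that closes the sterol rings, followed with 1.04 on M2, 2.66 on KO, 0.871 on Torin1 and 0.198 on M1, a log2 ratio of KO to M2 of 1.35. Acat2, Fdft1, Fdps, Dhcr7 and Mbtps2 were 2.19-fold to 2.30-fold higher on KO. Acat2, the thiolase at the head of the pathway, fell short of 2-fold with normexp background correction (log2 0.96). Its near-identical neighbour Acat3 had a log2 ratio of 1.02, and whether the probe tells these copies apart was not tested, so the Acat2 values are uncertain. For Fdft1, squalene synthase, a dimmer second probe gave 0.03 where the brighter gave 1.19, and for Mbtps2 the second probe gave 0.72 where the brighter gave 1.13.

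Below 2-fold on KO, Insig1 (log2 0.91), Sc4mol (0.90) and Sqle (0.87) came nearest. Idi1, Hsd17b7, Stard4 and Cyp51 had log2 ratios of 0.49, 0.09, 0.22 and 0.62 on KO. Srebf1 and Srebf2, which encode the SREBPs themselves, had 0.24 and 0.42, and Scap 0.14. The second Srebf2 probe gave −0.36, so the probes give this gene no direction on KO.

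The comparison of Torin1 with M2 asks what mTOR inhibition did to the same transcripts under IL-4. Signals were lower on the Torin1 array for 18 of 19 enzymes, all but Ggps1, with a median log2 ratio of −1.21, and for 5 of 10 sensing genes, with a median of −0.04 over values from −3.08 to 0.93. Over the 15958 genes tested the median was 0.05, and 52.2% of them were above 0. At least 2-fold lower were 13 of the 29 genes (44.8%), beside 15.2% of all genes tested, and at least 2-fold higher were 0 of 29, beside 15.1%. The 13 were 11 enzymes and, of the sensing group, Insig1 and Stard4.

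Idi1, the isomerase that makes dimethylallyl diphosphate, read 7.64 on M2, 10.7 on KO, 0.428 on Torin1 and 0.198 on M1. On Torin1 it was 17.9-fold lower than on M2 (log2 −4.16), the lowest ratio of the 29. Hsd17b7, the sterol ketone reductase, read 0.559 on M2, 0.597 on KO, 0.0521 on Torin1 and 0.0232 on M1, so the KO and M2 values lay 1.07-fold apart and the Torin1 value 10.7-fold below M2. Sqle, squalene epoxidase, an oxygen-dependent step at which flux is controlled, read 8.21 on M2, 15.0 on KO, 0.895 on Torin1 and 1.59 on M1, and it was the Torin1 value that was lowest. These genes shared the largest Torin1 differences with small KO differences, apart from Sqle, 1.82-fold higher on KO. Cyp51, the lanosterol demethylase, read 0.955 on M2, 1.46 on KO, 0.107 on Torin1 and 0.0411 on M1. Its Torin1 signal was 8.90-fold below M2. With normexp background correction the Torin1 differences of Hsd17b7 and Cyp51 were 3.40-fold and 4.72-fold.

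Stard4, which carries cholesterol between membranes, read 2.30 on M2, 2.67 on KO, 0.272 on Torin1 and 0.190 on M1, and was 8.44-fold lower on Torin1. Tm7sf2, a sterol reductase, read 3.45 on M2, 4.70 on KO, 0.458 on Torin1 and 6.44 on M1, so it was 7.55-fold lower on Torin1 and 1.87-fold higher on M1. Sc4mol, which oxidizes methyl groups of the sterol ring, read 28.0 on M2, 52.1 on KO, 5.61 on Torin1 and 23.2 on M1, 4.99-fold lower on Torin1. These 7 genes, from Idi1 to Sc4mol, had the largest Torin1 differences of the 29 in the scaling used, and second probes of Hsd17b7, Tm7sf2 and Stard4 were also more than 2-fold lower. Fdps, Insig1, Hmgcs1, Sc5d, Nsdhl and Mvk were 2.23-fold to 4.35-fold lower, although the second probe of Mvk gave a log2 ratio of −0.69. The enzymes within 2-fold were spread along the pathway. Of the early ones, Pmvk and Mvd had log2 ratios of −0.90 and Acat2 −0.85, and Ebp, a sterol isomerase, had −0.68. Fdft1 and Lss, early in the sterol steps, and Dhcr7, at their end, had −0.19, −0.26 and −0.13, and Ggps1, which makes geranylgeranyl diphosphate for protein prenylation and not sterol, had 0.38.

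The sensing genes split. Insig1, itself a known SREBP target, read 1.05 on M2, 1.97 on KO, 0.313 on Torin1 and 0.850 on M1, while Insig2, which is controlled differently, read 6.50, 8.02, 6.15 and 6.26 in the same order. Insig1 thus spanned 6.30-fold over the arrays and Insig2 1.30-fold, by the probes and scaling read. The second Insig2 probe gave log2 ratios of 0.23 on KO, −0.39 on Torin1 and 0.18 on M1. With arrays set to the same median, the probe read gave −0.87 on M1. Srebf2 was higher on Torin1 by the brighter probe (log2 0.93), and its second probe gave −0.10. Srebf1 had a log2 ratio of 0.01, which was −0.24 with a shift to the array median. The signs of Srebf1, Insig2 and Osbp on Torin1 changed with the scaling. Scap and Mbtps1, the carrier and the first protease, had −0.29 and −0.50, and Mbtps2, the second protease, had 0.53. Soat1 was 1.58-fold higher on Torin1, and Osbp, an oxysterol-binding protein of membrane contacts, had log2 ratios between −0.05 and 0.13 in the 3 comparisons with M2, while its second probe gave 0.39 on KO, −0.03 on Torin1 and 0.96 on M1. Among the genes with a promoter in the table, CCAAT and GGGCGG both lay upstream of 10 of 10 that were at least 2-fold lower on Torin1 and each upstream of 11 of the other 15, and the looser sterol element upstream of 5 of 10 and 4 of 15. Split by M1 instead, CCAAT lay upstream of 10 of 13 genes at least 2-fold lower and 11 of the other 12, GGGCGG of 11 of 13 and 10 of 12, and the looser element of 4 of 13 and 5 of 12.

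**Figure D3:**
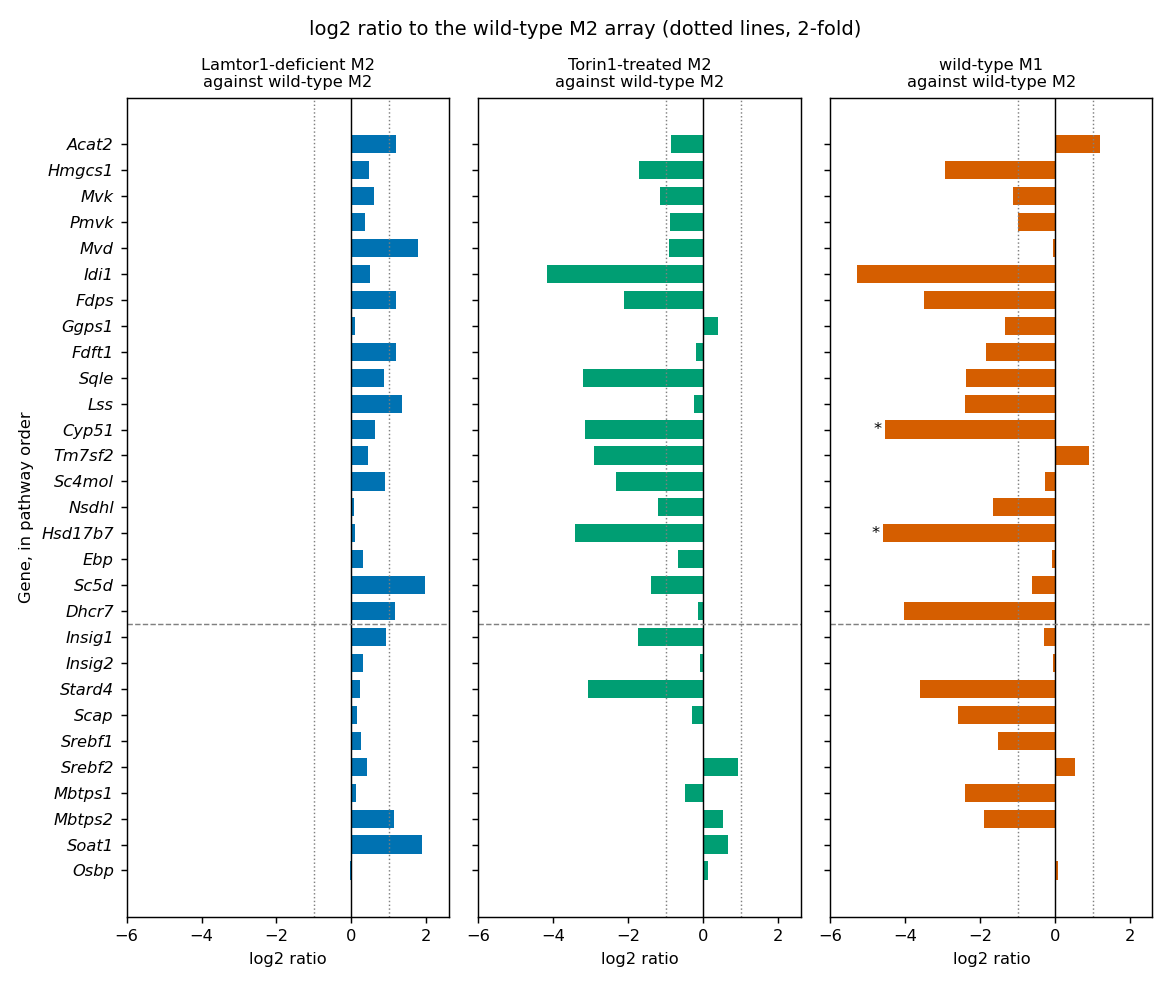
log2 ratios of the 29 genes on the Lamtor1-deficient, Torin1-treated and M1 arrays, each against the same wild-type M2 array, in pathway order with the sensing genes below the dashed line. Bars are single values from 1 array each, dotted lines mark 2-fold, and asterisks mark Cyp51 and Hsd17b7, whose plotted probes were not well above background on M1. Bars on the left panel reach 1.95 and those of Idi1 reach −4.16 and −5.27 on the other panels.

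The comparison of M1 with M2 sets the inflammatory against the IL-4 state in wild-type cells. Signals were lower on M1 for 17 of 19 enzymes, with a median log2 ratio of −1.65. They were also lower for 8 of 10 sensing genes, with a median of −0.92. Mvd (−0.06), Ebp (−0.07), Insig2 (−0.05) and Soat1 (−0.01), counted as lower, lay inside the technical SD. The median over the 16070 genes tested was 0.09, and 51.9% of them were above 0. At least 2-fold lower were 17 of the 29 genes (58.6%), beside 27.7% of all genes tested, and at least 2-fold higher was 1, Acat2, beside 28.5%. The scale between these arrays was the least certain of the comparisons. A shift to the array median moved the median over all genes by −0.82 on the log2 scale, and with it 7092 of all genes were at least 2-fold lower and 2445 higher (25.6% of the called genes higher, against 50.7% in the setting used here), and 21 of the 29 genes were lower and 0 higher. The same shift moved the Torin1 to M2 median by −0.25 and the share higher from 49.9% to 35.2%, and with it 16 of the 29 genes were lower.

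Idi1 was 38.7-fold lower on M1 (log2 −5.27), the lowest ratio among the genes whose probe was well above background on both arrays. Dhcr7, which catalyses a last reduction to cholesterol, read 2.09 on M2, 4.70 on KO, 1.91 on Torin1 and 0.128 on M1, so it was 16.4-fold lower on M1 and 1.10-fold lower on Torin1. Stard4 was 12.1-fold lower and Fdps, farnesyl diphosphate synthase, 11.2-fold, with Fdps signals of 19.7 on M2, 44.7 on KO, 4.52 on Torin1 and 1.75 on M1. For Cyp51 and Hsd17b7, not well above background on M1 by the probes read, the signals given above allow only bounds, at least 14.6-fold and at least 8.53-fold lower, as computed from the scanner's own background correction. Normexp correction gave these dim probes 4.85-fold and 2.54-fold, under the bounds. A second Hsd17b7 probe, well above background on M1 and M2, read 4.22-fold lower, so the probes of this gene do not give the same size. Both bounds are larger differences than the enzyme median of −1.65, so reading the genes at their bounds could not move it. Over the enzymes well above background on both arrays the median was −1.33. Hmgcs1, the synthase that makes HMG-CoA, read 23.0 on M2, 32.0 on KO, 6.95 on Torin1 and 3.00 on M1, 7.68-fold lower on M1. Lss and Sqle were 5.25-fold and 5.15-fold lower. Fdft1, Nsdhl and Mvk were 2.17-fold to 3.58-fold lower, and Pmvk (1.99-fold) and Sc5d (1.53-fold) were within 2-fold by the probes and scaling read. The second Pmvk probe was 2.06-fold lower, and with arrays set to the same median the log2 ratios were −1.81 for Pmvk and −1.43 for Sc5d. Acat2 went the other way, with 0.292 on M2, 0.671 on KO, 0.162 on Torin1 and 0.670 on M1, while Acat3 had a log2 ratio of −0.23 on M1. Normexp correction left the differences of genes well above background on M1 smaller too, at 19.8-fold for Idi1, 6.74-fold for Dhcr7, 6.31-fold for Stard4 and 3.21-fold for Lss.

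In the sensing group, Scap was 6.04-fold lower on M1, with signals of 16.8 on M2, 18.5 on KO, 13.7 on Torin1 and 2.78 on M1. Mbtps1 was 5.26-fold lower (21.1 on M2, 22.8 on KO, 14.9 on Torin1, 4.01 on M1), Mbtps2 3.71-fold and Srebf1 2.90-fold. The carrier and both proteases of SREBP were therefore at least 2-fold lower on M1 and within 2-fold on Torin1. With normexp correction Mbtps2 was 2.33-fold lower and Srebf1 was within 2-fold (log2 −0.81). Srebf2 could not be given a direction on M1, because its probes gave 0.54 and −1.40 and the brighter turned to −0.28 with a shift to the median. Ggps1 was 2.52-fold lower by its brightest probe, and another of its 3 probes gave 0.51. Mvd, Sc4mol, Ebp, Insig1, Insig2, Soat1 and Osbp had log2 ratios between −0.30 and 0.08, of which those of Mvd and Osbp changed sign with the scaling. With arrays set to the same median, Sc4mol (−1.09) and Insig1 (−1.12) were at least 2-fold lower. The others then lay from −0.90 (Ebp) to −0.75 (Osbp).

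Dhcr7, Lss, Fdft1 and Mbtps2 stood differently on each array compared with M2, which the 3 comparisons share. Dhcr7 and Lss were 2.25-fold and 2.56-fold higher on KO, 1.10-fold and 1.19-fold lower on Torin1, and 16.4-fold and 5.25-fold lower on M1. By the brighter probes, Fdft1 was 2.28-fold higher on KO, 1.14-fold lower on Torin1 and 3.58-fold lower on M1. Mbtps2 was 2.19-fold higher on KO, 1.44-fold higher on Torin1 and 3.71-fold lower on M1. Tm7sf2, Sc4mol and Sc5d were at least 2-fold lower on Torin1, with log2 ratios on M1 of 0.90, −0.27 and −0.61. With arrays set to the same median the M1 ratios were 0.08, −1.09 and −1.43. Sc4mol and Sc5d were then at least 2-fold lower on M1 too, so their contrast rests on the scaling.

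The direct comparison of Torin1 with KO, both under IL-4, does not use the M2 array. Signals were lower on Torin1 for 26 of 29 genes, all but Ggps1, Srebf2 and Osbp (Ggps1 and Osbp changed sign with the scaling). Median log2 ratios were −2.20 over the enzymes and −0.52 over the sensing genes. Over the 15938 genes tested the median was −0.06, and 47.1% of them were above 0. At least 2-fold lower were 20 of the 29 (69.0%), beside 14.9% of all genes tested, and at least 2-fold higher were 0, beside 13.7%. By group these were 17 of 19 enzymes and 3 of 10 sensing genes. Idi1 was 25.0-fold lower on Torin1 than on KO, Sqle 16.7-fold, Cyp51 13.7-fold, Hsd17b7 11.5-fold, and Sc5d and Tm7sf2 both 10.3-fold. With normexp correction Cyp51 was 7.03-fold, Hsd17b7 3.66-fold and Acat2 2.62-fold (from 4.15-fold) lower. Along the pathway, the 8 mevalonate-arm enzymes had a median of −2.13 and the 11 enzymes from squalene synthase on a median of −3.22. The enzymes within 2-fold were Ggps1 and Ebp (log2 −0.98), and Soat1, Stard4 and Insig1 were the sensing genes past it. A shift to the array median moved the median over all genes by −0.31, with 21 genes then at least 2-fold lower and 29.9% of all called genes higher, against 47.8%.

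**Figure D4:**
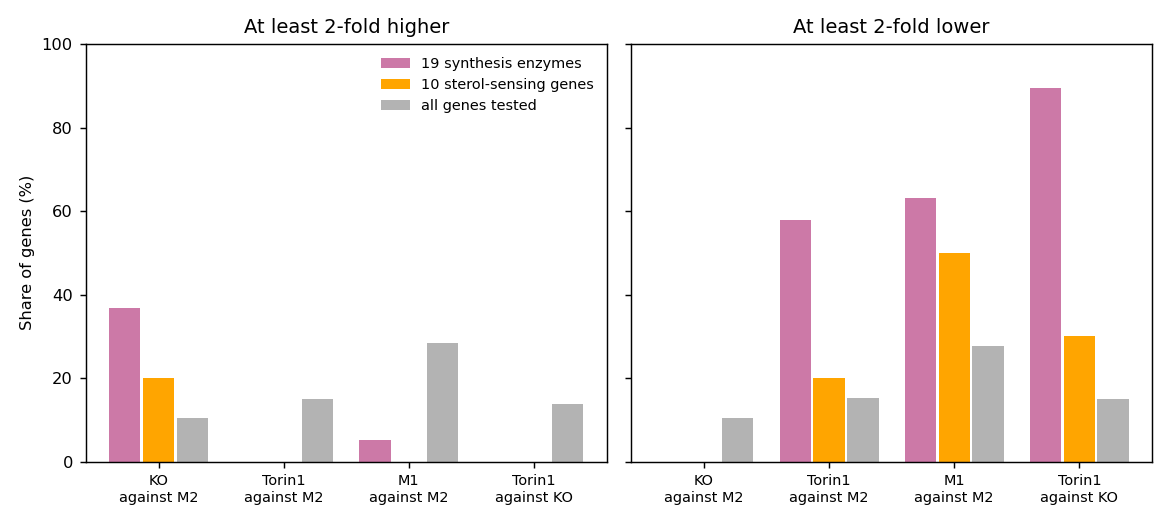
Share of genes (%) at least 2-fold higher (left) or lower (right) among the 19 synthesis enzymes, the 10 sterol-sensing genes and all genes tested, in 4 comparisons of single arrays. Enzymes stand at 57.9% lower on Torin1, 63.2% on M1 and 89.5% for Torin1 against KO, beside 15.2%, 27.7% and 14.9% of all genes, and at 36.8% higher on KO beside 10.5%.

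Neighbouring gene lists differed between arrays in part in the same direction, and their counts stand beside the shares of all genes given above for each comparison. Of 14 genes of fatty acid synthesis well above background, a pathway that SREBP-1 drives, 5 were at least 2-fold higher and 0 lower on KO, and 0 higher and 5 lower on Torin1, with median log2 ratios of 0.72 and −0.52. On M1, 9 of 15 were lower and 1 higher (median −1.37). The desaturases Scd1 and Scd2 had log2 ratios of 4.34 and 2.50 on KO and −2.02 and −5.62 on Torin1, and Fasn, the fatty acid synthase, had 1.62 on KO. Elovl6, an elongase, had −2.87 on Torin1, and the M1 list was led by Lpin1 (−3.88), Acaca (−3.26) and Fads1 (−3.13).

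The 15 genes of the isoprenoid branch, which use farnesyl and geranylgeranyl diphosphate for prenylation, dolichol and ubiquinone, had 0 past 2-fold on KO, 2 lower on Torin1 (Srd5a3 at −1.16 and Pdss1 at −1.10) and 7 lower and 2 higher on M1, with Zmpste24 at −3.15, Pdss1 at −2.14 and Nus1 at 2.04. Their other leading values within 2-fold were Nus1 0.93, Srd5a3 −0.77 and Coq2 0.74 on KO and Rabggtb 0.75 on Torin1. Among 14 genes for the turnover of sterol-regulated proteins in the endoplasmic reticulum, 0 passed 2-fold on KO, where Ubxn4 had 0.76, March6 −0.62 and Pgrmc1 0.53. On Torin1 1 was lower (Rnf145, −1.60) and 1 higher (Pgrmc1, 1.06), with Vcp at −0.71. On M1 5 were lower and 2 higher, with Erlin2 at −2.97, Erlin1 at −2.61 and March6 at −2.12.

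The sterol trafficking and storage list held 18 genes. On KO 4 were at least 2-fold higher and 0 lower, led by Soat2, a second sterol esterification enzyme (2.72), and the oxysterol-binding relatives Osbpl1a (1.82) and Osbpl5 (1.69). On Torin1 4 were higher (22.2%, beside 15.1% of all genes) and 2 lower (11.1%, beside 15.2%), with Npc2 and Npc1, the proteins that export cholesterol from lysosomes, at 1.47 and 1.20 and Scp2 at −1.18. Npc1 read 6.02 on M2, 12.1 on KO, 13.8 on Torin1 and 8.07 on M1. On M1 5 were higher and 4 lower, shares of 27.8% and 22.2% beside 28.5% and 27.7% of all genes, with Gramd1c at 5.19, Soat2 at 3.33 and Gramd1b at 3.02.

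Of the oxysterol enzymes, 7 of 8 were well above background on M2 or the array compared. On KO 2 were at least 2-fold higher and 2 lower, with Cyp39a1 at −2.23, Cyp27a1 at −1.87 and Cyp7b1 at 1.34. On Torin1 1 was higher and 2 lower, with Cyp39a1 at −3.17, Sult2b1 at 1.32 and Cyp27a1 at −1.15. On M1 3 were higher and 3 lower, and Ch25h, which makes 25-hydroxycholesterol, a sterol that blocks SREBP transport, was at 3.10 (1.27 on KO and −0.11 on Torin1), Sult2b1 at −1.84 and Cyp46a1 at 1.33. Of the LXR lipid efflux genes, the counterpart of synthesis when sterol is plentiful, 0 were at least 2-fold higher and 3 lower both on KO (8 measured) and on Torin1 (9 measured). Pltp had −4.80 on KO and −3.94 on Torin1, Lpl −4.14 and −5.46, and Abca1, the cholesterol exporter, −1.96 and −1.08. On M1 1 was higher and 3 lower, with Lpl at −6.66, Mylip at 2.14 and Pltp at −1.27. The list did not move one way, with median log2 ratios of −0.25 on KO and 0.01 on Torin1, and Abcg1 (0.51) and Nr1h3 (0.77) above 0 on KO.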

How the data were processed

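Gene expression was measured by 1-colour (Cy3) hybridization of total RNA to Agilent whole mouse genome arrays, 1 per condition. The authors deposited scanner files with spot intensities made by Agilent Feature Extraction (version 10.7.3.1 in the file headers, 10.5.1.1 in the submitters' processing notes), whose processed signal has a fitted background surface subtracted and spatial trends corrected and is not normalized between arrays. A deposited series table of the same intensities served as an alternative.

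Following the study's methods, signals were set to at least 1 and divided by the 75th percentile of each array, with no filter on dim probes. Control and outlier spots were left out, and spots of a probe were averaged. Genes counted as tested where the probe was well above background on at least 1 of the arrays compared. Bounds ("at least") use the lowest signal well above background, which was 18.8 on M1, 21.6 on M2, 20.1 on KO and 15.7 on Torin1. Probe positions were annotated on mm9, on which exon and UTR annotation was not used here. The named genes were all members, the targeted gene, markers, and the 3 largest ratios of each neighbouring list among probes well above background on both arrays. Acat3 was named after values were seen. Members and lists were chosen with earlier results of these data known. The marker lists also held genes of the IFN-γ and LPS response (Nos2, Il6, Il12b and Cxcl9, with 3 measured in each comparison, of which 3 were at least 2-fold higher on M1, 2 higher and 1 lower on KO, and 2 higher and 0 lower on Torin1). Another marker list is not reported here. Counts and medians were computed with Python 3.11.15, NumPy 2.4.6 and pandas 2.3.3, and normexp (offset 50) and quantile normalization with limma 3.58.1 in R 4.3.3. The procedure was tested on simulated data. Alternatives are given in the closing section.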

Additional observations from a re-analysis of the deposited data

How the results depend on the processing

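Under the 9 alternatives for each median and the 11 for each count, 136 of the 160 values of the 4 comparisons moved by less than the technical SD (medians) or stayed within 1.5 times (counts). No median larger than the technical SD changed sign, and the sensing median of Torin1 to M2, −0.04, was 0.05 with the percentile over probes well above background. With a shift to the array median, the enzyme median was −1.46 for Torin1 to M2, −2.47 for M1 to M2 and −2.51 for Torin1 to KO, the sensing median −0.28, −1.74 and −0.83, and 0 genes were 2-fold higher on M1. Normexp correction gave enzyme medians of −1.34 (M1 to M2) and −1.87 (Torin1 to KO) and a sensing median of −0.52 (M1 to M2). Quantile normalization gave −2.06 (enzymes, Torin1 to KO), −1.09 (sensing, M1 to M2) and −0.31 (sensing, Torin1 to KO). The percentile over probes well above background gave −2.05 and −0.37 for Torin1 to KO, and 1 gene, Srebf2, 2-fold higher on Torin1 than on M2. Means over probes gave enzyme medians of −1.41 (Torin1 to M2) and −1.44 (M1 to M2), and genes well above background on both arrays −1.33 (M1 to M2). At a 1.5-fold threshold 14 genes were higher on KO, 2 on Torin1 and 2 on M1, and at 3-fold 3 on KO and 0 on M1. Of 1041 values of single genes, 224 moved by more than the technical SD and 0 of those past 2-fold changed sign. The cause of these shifts was not tested.

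Signal over background limited the probes read for Cyp51 and Hsd17b7 to bounds on M1, and 1 array per condition limits every value. No paired analysis was possible because each condition has 1 array.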
